A study of Mus musculus with 4 samples.

Results

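The expression of 10 genes was followed in mesenchymal cells of embryonic thymic lobes by droplet scRNA Seq. The genes were En1, C1qtnf3, Zfhx4, Fibin, Agtr2, Angptl1, Ogn, Scx, Crispld1, and Aspn, out of 27998 genes in the deposited tables. They were chosen by their high values in the mesenchyme of the Tbx1neo2/neo2 carrier library, so their difference from the Tbx1+/+ carrier library selected them and is given as a description, without a test. A cell was counted as mesenchymal when Pdgfra and Pdgfrb together had at least 2 UMIs (unique molecular identifiers, 1 for each captured transcript) and Epcam, Ptprc, and Cdh5 had none. Thymic lobes came from E13 to E13.5 embryos of timed pregnant mice from Tbx1+/neo2 intercrosses. Dams had received intraperitoneal injections on E8, E9, and E10. The carrier was 5% ETOH in PBS, minoxidil was given as 200 µl of a 0.55 mg/ml solution, and PGE2 as 90 µl of a 3.6 ng/µl solution. There was 1 library for each of 4 groups, labelled Tbx1+/+ carrier, Tbx1neo2/neo2 carrier (called the mutant carrier below), Tbx1neo2/neo2 minoxidil, and Tbx1neo2/neo2 PGE2. The neo2 allele is a neomycin cassette within an intron of Tbx1 that lowers but does not abolish expression, lobes were pooled for hypoplastic tissue, and the number of embryos in each library was not given in the sources used here.

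Mesenchyme around the thymus comes largely from the neural crest and supplies the capsule, the perivascular cells, and growth factors for the epithelium. Elsewhere in the embryo, connective tissue of the trunk and limbs arises from mesoderm, and its position along the body axis is marked by the Hox genes, with the higher numbered groups used toward the tail. En1, Zfhx4, and Scx encode transcription regulators. En1 is a homeodomain factor of the ventral limb ectoderm, the somitic dermis, and the midbrain-hindbrain boundary, Zfhx4 is a large zinc finger homeodomain protein, and Scx (scleraxis) is a basic helix-loop-helix factor of tendon progenitors. Agtr2 is the type 2 angiotensin receptor, which is abundant in fetal mesenchyme. The products of the remaining genes are secreted. Ogn (osteoglycin) and Aspn (asporin) are small leucine-rich proteoglycans of the matrix, Angptl1 is an angiopoietin-like protein, C1qtnf3 belongs to the C1q and TNF related proteins, Fibin is a secreted protein first described in fin bud development, and Crispld1 holds a cysteine-rich secretory protein domain with LCCL domains.

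In GENCODE vM21 (GRCm38, the assembly also called mm10), Aspn (chr13:49544443-49567565) and Ogn (chr13:49608046-49624501) lie on the plus strand 40480 bases apart. Between them is Omd, and before them is Ecm2, which belong to the same proteoglycan family. Aspn and Ogn lie within Cenpp, which is on the other strand. The windows of 250 bases that precede the RefSeq starts (GRCm38.p6) were matched for 7 of the 10 genes. The 3 of these windows that hold no annotated exon are printed, because they belong to the gene with no UMI in the mesenchymal cells of the Tbx1+/+ carrier library (C1qtnf3) and to the neighbouring proteoglycan genes. Capitals mark the E-box letters CANNTG, which are the same on both strands and are bound by helix-loop-helix factors such as Scx. All 3 are plus strand, C1qtnf3 at chr15:10952082-10952331, Ogn at chr13:49607765-49608014, and Aspn at chr13:49544193-49544442.
C1qtnf3: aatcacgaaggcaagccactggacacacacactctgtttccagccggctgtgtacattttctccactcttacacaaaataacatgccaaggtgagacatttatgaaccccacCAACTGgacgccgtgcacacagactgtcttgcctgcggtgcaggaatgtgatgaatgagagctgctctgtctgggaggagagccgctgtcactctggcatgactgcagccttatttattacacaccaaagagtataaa
Ogn: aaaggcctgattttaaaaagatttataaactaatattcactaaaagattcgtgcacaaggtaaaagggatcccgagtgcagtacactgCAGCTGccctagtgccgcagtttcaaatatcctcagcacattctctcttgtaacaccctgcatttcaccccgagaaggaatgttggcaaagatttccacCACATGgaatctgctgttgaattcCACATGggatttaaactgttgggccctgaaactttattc
Aspn: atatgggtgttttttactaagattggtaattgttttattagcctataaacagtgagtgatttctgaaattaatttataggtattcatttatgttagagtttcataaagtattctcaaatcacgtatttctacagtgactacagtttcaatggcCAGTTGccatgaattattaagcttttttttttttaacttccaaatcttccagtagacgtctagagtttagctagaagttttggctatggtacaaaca
The Ogn window held 3 E-boxes and each of the other windows printed held 1. Over the 7 windows, 6 held at least 1 E-box, while 66.2% of all 32851 windows of this length did. The homeodomain letters TAATTA, likewise the same on both strands and not overlapping an E-box here, were in 0 of the 7 windows and in 4.84% of all. These letters describe the windows and are not evidence of binding.

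The libraries held 3362 to 11908 deposited cells with 151740600 to 292687940 UMIs. Cells needed 200 genes and a mitochondrial share of 10% or less. Of the cells that passed, 2194, 3674, 828, and 718 were mesenchymal in the order above, out of 11474, 10683, 3201, and 4152. Their median depth was 16403, 14346.5, 30222.5, and 25288 UMIs. The 8 mesenchymal markers were each found in 50.1% to 99.9% of these cells. In the Tbx1neo2/neo2 carrier library 977 cells had the minimum of 2 UMIs for the gate and 1256 more fell short by 1, against 217 and 254 in the Tbx1+/+ carrier library. Of the mesenchymal barcodes, 5 to 15 a library also occurred in another library. Tbx1 itself was rare, at 3.26, 2.37, 3.49, and 2.22 CPM (the UMIs of the gene scaled to a total of 1000000 UMIs over the mesenchymal cells of that library), and at 2.28, 2.33, 2.46, and 1.14 CPM over all cells that passed. Over all cells only the PGE2 library was below the Tbx1+/+ carrier. Within mesenchymal cells the Tbx1neo2/neo2 carrier and PGE2 libraries were below it, and the minoxidil library was not. The log2 ratio of the Tbx1neo2/neo2 carrier to the Tbx1+/+ carrier there was -0.46 (-0.81 to -0.10). A lower Tbx1 level was thus not seen in both sets of cells for the Tbx1neo2/neo2 carrier, nor in either for minoxidil. Genotypes are named here as labelled. Whether these UMIs include transcripts of the altered allele was not tested. Markers of other cells differed between the libraries. The 7 chondrocyte markers summed to 84.1, 894, 100.6, and 69.6 CPM, and the 5 pericyte markers to 398, 109, 444, and 596 CPM, and 1 chondrocyte marker was at 0 in the minoxidil and in the PGE2 library. Erythroid genes, a sign of free RNA, summed to 726, 1585, 882, and 2107 CPM. The part of these markers in the levels below was not tested. With 1 library per group there is no spread between embryos, and all intervals are 95% intervals for counting error alone.

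Among the transcription regulators, En1 was all but confined to the mutant carrier among these 4 libraries. In the order Tbx1+/+ carrier, Tbx1neo2/neo2 carrier, Tbx1neo2/neo2 minoxidil, and Tbx1neo2/neo2 PGE2, its level was 0.0509, 55.2, 0.0742, and 0.758 CPM, from 2, 3280, 2, and 15 UMIs. The 2 UMIs of the Tbx1+/+ carrier library were in 1 cell, and 11 of the 15 UMIs of the PGE2 library were also in 1 cell. The ratio of the Tbx1neo2/neo2 carrier to the Tbx1+/+ carrier was 1085 (interval 300.02 to 8960.1), and the width of the interval comes from the 2 UMIs. The ratio ranked 1 among 15314 genes compared. In that ranking a count of 0 was taken at 3 counts, but a count of 2 was left as it was. Hoxc8 (3869 against 0 UMIs) and C1qtnf3 (3705 against 0) were thus placed lower, at 853-fold and 817-fold. The first rank of En1 therefore depends on this rule. Zfhx4 was present in all libraries, at 22.1, 287, 25.8, and 35.0 CPM. Only the mutant carrier stood apart by more than 2-fold, and its level was 13-fold that of the Tbx1+/+ carrier (12.1 to 13.9). Scx was at 10.2, 164, 7.83, and 1.87 CPM, a ratio of 16.2 (14.6 to 17.9) between the carriers. The PGE2 library had the lowest Scx level and the minoxidil library the next lowest.

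Agtr2, the receptor of the set, was at 7.46, 107, 9.20, and 33.8 CPM. The mutant carrier was 14.3-fold above the Tbx1+/+ carrier (12.8 to 16.2), and the PGE2 library lay between the mutant carrier and the other libraries.

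Levels of the secreted factors differed as much. C1qtnf3 had no UMI in the 2194 Tbx1+/+ carrier cells, with an interval of 0 to 0.0939 CPM, and was at 62.4, 0.0742, and 1.41 CPM in the others. With the 0 taken at 3 counts (0.0764 CPM), its level in the mutant carrier was 817-fold higher. It was also the most uneven of the genes, with 92.0% of its UMIs in the 10% of cells that had most of them, compared with 34.8% for Angptl1. Angptl1 was at 7.69, 230.4, 11.9, and 25.1 CPM, a ratio of 29.97 between the carriers (26.7 to 33.7). Fibin reached the highest level of the set, at 14.8, 421, 17.3, and 66.3 CPM, with a ratio of 28.5 (26.2 to 31.0). Both had their second highest value in the PGE2 library. Crispld1 had the smallest difference, at 20.5, 71.7, 24.9, and 13.5 CPM and a ratio of 3.49 (3.24 to 3.77), and it ranked 678 of the 15314 genes.

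For the matrix proteoglycans, Ogn was at 36.3, 415, 46.3, and 101.5 CPM, and Aspn at 16.2, 223, 14.4, and 30.2 CPM. Ratios between the carriers were 11.5 (10.9 to 12.1) for Ogn and 13.7 (12.7 to 14.9) for Aspn. Their neighbours were at low levels. Omd was at 0.280, 0.421, 0.334, and 0.960 CPM and was not called between the carriers, and Ecm2 was lower in the mutant carrier, at 1.68, 0.741, 1.34, and 2.68 CPM. Decorin (Dcn) was at 930 and 636 CPM, lumican (Lum) at 799 and 565, and biglycan (Bgn) at 180.2 and 191 in the Tbx1+/+ and Tbx1neo2/neo2 carriers, and none of these passed the 1.5-fold limit.

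**Figure D1:**
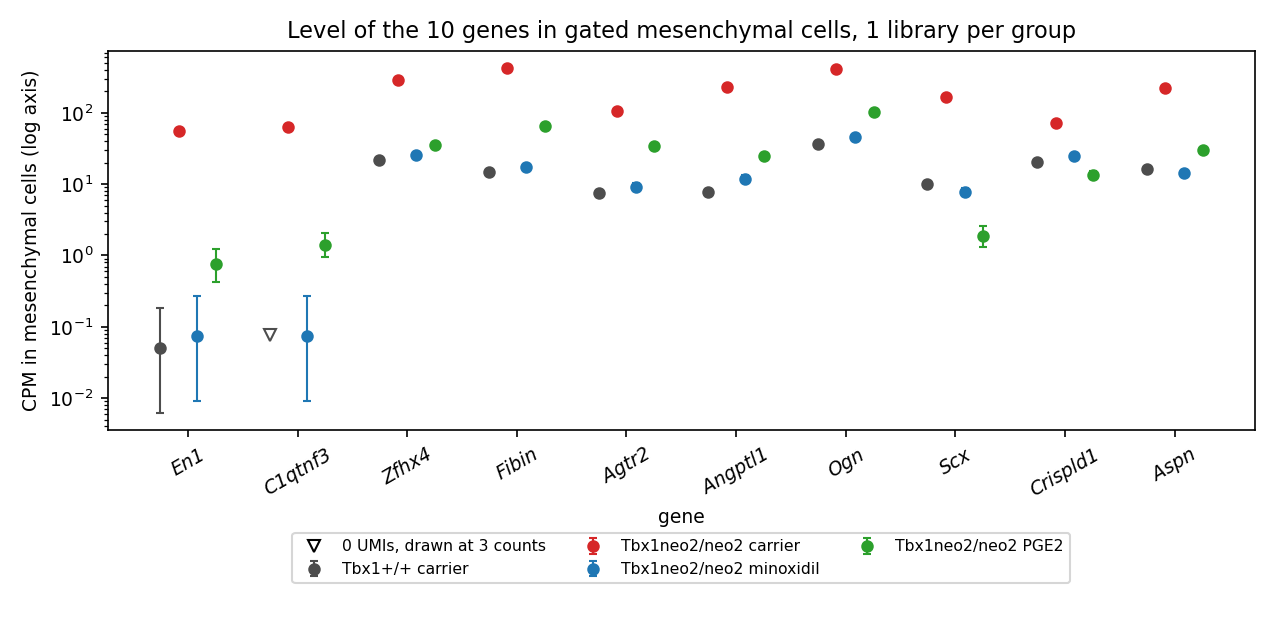
Level of each gene in mesenchymal cells (CPM, log axis) in the 4 libraries, 1 point per library with its exact Poisson 95% interval for counting error, and a triangle at 3 counts for a level of 0. The Tbx1neo2/neo2 carrier is highest for each of the 10 genes, and the PGE2 library is second for En1, C1qtnf3, Zfhx4, Fibin, Agtr2, Angptl1, Ogn, and Aspn but lowest for Scx and Crispld1.

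A gene was called when 2 libraries differed by at least 1.5-fold and their Poisson intervals did not overlap, among genes with at least 20 UMIs in the pair. By this rule 10 of 10 genes were called higher in the library labelled Tbx1neo2/neo2 carrier than in that labelled Tbx1+/+ carrier, where 12.4% of all 15314 genes were higher and 10.7% lower. At 4-fold, 9 of the 10 passed and 3.6% of all genes did. The median log2 ratio of the 10 genes was 3.93 and that of all genes 0.02. The choice of the genes fixed this outcome. The same genes were 10 of 10 lower in the minoxidil library than in the mutant carrier (11.4% of genes were lower), with a median log2 ratio of -4.11, and 10 of 10 lower in the PGE2 library (12.2% of genes), with a median of -2.96. These comparisons share the mutant carrier library that selected the genes.

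Levels in the drug libraries set beside the Tbx1+/+ carrier did not use the mutant carrier library. They do use the Tbx1+/+ carrier, the other side of the difference that selected the genes, and are likewise a description. In the minoxidil library 8 genes had enough UMIs, of which 1 was called higher (2.66% of all genes were) and 0 lower (1.7% of all genes were). This was Angptl1 at 1.54-fold (1.32 to 1.81), which was 1.2-fold and not called between female cells alone. The other 7 lay between 0.771-fold (Scx, 0.649 to 0.913) and 1.28-fold (Ogn, 1.18 to 1.38), so counting error alone did not cover all of these differences, but none reached the limit. In the PGE2 library 7 of 9 genes were called higher (4.97% of all genes were). Their ratios went from 1.58 for Zfhx4 to 4.53 for Agtr2 (3.94 to 5.21), apart from C1qtnf3. C1qtnf3 was 18.5-fold higher with the 0 of the Tbx1+/+ carrier taken at 3 counts. Fibin was 4.49-fold (4.07 to 4.96), Angptl1 3.27-fold (2.82 to 3.78), Ogn 2.80-fold (2.61 to 2.996), and Aspn 1.86-fold (1.66 to 2.08) above the Tbx1+/+ carrier. The other 2 of the 9 genes were called lower (4.07% of all genes were), Scx at 0.184-fold (0.128 to 0.258) and Crispld1 at 0.656-fold (0.569 to 0.755). En1 had too few UMIs to be called in either pair. Whether these differences exceed the spread between embryos could not be tested.

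To see how many cells carried the transcripts, each cell was thinned to 5000 UMIs, which left out 14, 21, 8, and 4 shallower mesenchymal cells. In the mutant carrier, Ogn was found in 65.7% of 3653 cells, Fibin in 65.4%, Zfhx4 in 61.1%, and Angptl1 in 56.0%. Aspn was found in 40.9%, Scx in 39.3%, Agtr2 in 28.7%, Crispld1 in 26.3%, En1 in 17.9%, and C1qtnf3 in 11.3%. Without thinning these shares went from 16.7% for C1qtnf3 to 81.4% for Zfhx4. In the Tbx1+/+ carrier the thinned shares were 0% of 2180 cells (interval 0 to 0.169) for C1qtnf3, 0.0459% for En1, and 3.17% to 13.3% for the other genes. In Ptprc-positive hematopoietic cells of the mutant carrier, which should lack these transcripts, 2 to 7 of 253 thinned cells had a UMI of a given gene, so the mesenchymal shares there were all above this background. The median depth was 18844 UMIs in these hematopoietic cells before thinning.

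Several of the 10 genes were found in most mesenchymal cells of the mutant carrier. This count reuses the library that chose the genes and is a description. Whether the genes shared cells more often than their single shares would give was not tested. At least 3 of the 10 genes were found in 79.3% of the thinned cells (78.0 to 80.6), compared with 2.71% (2.07 to 3.48) in the Tbx1+/+ carrier, 3.66% (2.48 to 5.18) in the minoxidil library, and 9.94% (7.85 to 12.4) in the PGE2 library. The median number of genes per cell was 4, 0, 0, and 1 in the mutant carrier, Tbx1+/+ carrier, minoxidil, and PGE2 libraries. The mutant carrier had 2 modes. There were 323 cells (8.84%) with none of the 10 genes, fewer with 1 (5.42%) or 2 (6.43%), and the most with 5 (21.5%). No cell had all 10 and 15 had 9. Pairwise correlations of log(1 + count) across the 3653 cells were weak, from 0.36 for Angptl1 and Fibin to -0.10 for Aspn and En1. All cells come from 1 library and the counts are sparse, so these values describe the library only.

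**Figure D2:**
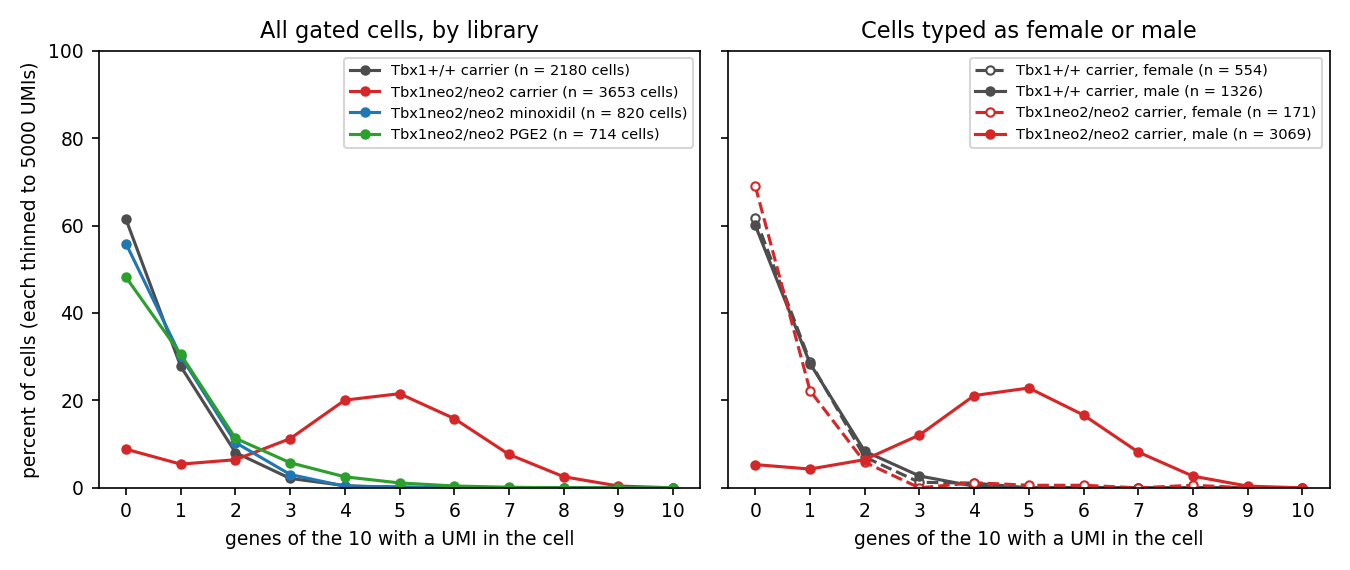
Share of mesenchymal cells (percent, vertical axis) by the number of the 10 genes with a UMI in the cell (horizontal axis), after thinning to 5000 UMIs, for the 4 libraries (left) and for female and male cells of the carrier libraries (right). The mutant carrier peaks at 5 genes and the other libraries at 0, and on the right only the male cells of the mutant carrier peak at 5.

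Hox genes of groups 6 to 13 were read in the same cells. In the mutant carrier Hoxa7 (93.9 CPM), Hoxc8 (65.1 CPM), and Hoxc6 (48.4 CPM) were highest among them. Within groups 10 to 13 the highest was Hoxa10, at 6.67 CPM. A UMI of Hox groups 6 to 13 was present in 41.6% (1518 of 3653) of the thinned mesenchymal cells of the mutant carrier, and in 8 of 2180, 4 of 820, and 4 of 714 cells of the Tbx1+/+ carrier, minoxidil, and PGE2 libraries. En1 followed these genes most closely. It was found in 32.9% (30.6 to 35.4) of the Hox-positive and 7.21% (6.15 to 8.39) of the Hox-negative cells, and 76.5% of the En1-positive cells were Hox-positive. Agtr2 came next, in 39.9% against 20.8%. Zfhx4 (73.2% against 52.6%), Crispld1 (31.4% against 22.6%), Scx (45.5% against 34.9%), Fibin (73.9% against 59.3%), and Ogn (74.2% against 59.7%) were also found more often with a Hox UMI, and the intervals of each pair did not overlap. Angptl1 (58.4% against 54.3%) and C1qtnf3 (12.5% against 10.5%) differed little, with intervals that overlapped. Hox-positive and Hox-negative cells also differed in sex, which is typed below. Of the Hox-positive cells 1356 were typed male and 4 female, out of 3069 male and 171 female thinned cells. The part of sex in the gap of each gene was not tested.

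Aspn went the other way. It was found in 27.7% (25.5 to 30.1) of the Hox-positive and 50.3% (48.2 to 52.4) of the Hox-negative cells of the mutant carrier, and its level was 129 CPM in the former and 298 CPM in the latter. Aspn and En1 thus lay at opposite ends of the set in this respect. Mutant carrier cells without a Hox UMI still had 225 CPM of Zfhx4, 410.3 CPM of Fibin, 350 CPM of Ogn, 226 CPM of Angptl1, and 142 CPM of Scx. In Hox-negative cells of the Tbx1+/+ carrier these levels were 22.2, 14.8, 36.3, 7.73, and 10.1 CPM. A cell with no Hox UMI after thinning can still express Hox genes, and without thinning the Hox-positive share was 52.8%. In the PGE2 library the 4 Hox-positive cells held 11 of the 15 En1 UMIs and had 569 CPM of Ogn and 358 CPM of Fibin, with no UMI of Scx, C1qtnf3, or Crispld1.

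**Figure D3:**
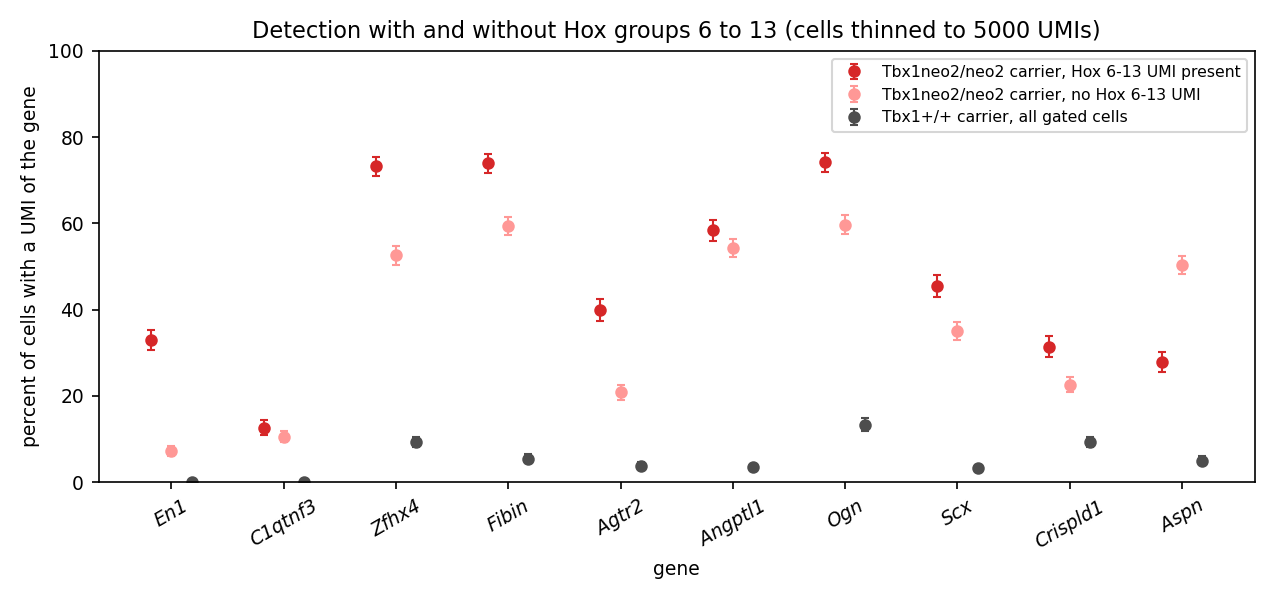
Percent of thinned mesenchymal cells with a UMI of each gene (vertical axis), for mutant carrier cells with and without a UMI of Hox groups 6 to 13 and for all Tbx1+/+ carrier cells, with exact binomial 95% intervals. En1 shows the largest relative gap (32.9% against 7.21%), Aspn the reverse order (27.7% against 50.3%), and the Tbx1+/+ carrier lies at 13.3% or below for all 10 genes.

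The sex of the cells separated the set within the mutant carrier. Cells were typed as female with a UMI of Xist and none of the Y-linked genes Ddx3y, Uty, Kdm5d, and Eif2s3y, and as male with the reverse. Mesenchymal cells typed female and male numbered 559 and 1330 in the Tbx1+/+ carrier, 172 and 3076 in the mutant carrier, 821 and 0 in the minoxidil library, and 1 and 665 in the PGE2 library. The libraries thus differed in the sex of their embryos, and the minoxidil and PGE2 libraries held cells of different sex. In the mutant carrier the female share was 5.30% (4.55 to 6.12) of mesenchymal cells but 37.7% (34.6 to 40.8) of epithelial, 30.04% (24.1 to 36.5) of hematopoietic, and 14.7% (8.63 to 22.7) of endothelial cells. In the Tbx1+/+ carrier these shares were 29.6%, 28.7%, 24.8%, and 33.7%.

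High levels of the 10 genes in the mutant carrier were those of its male cells. This split reuses the levels that chose the genes and is a description. Zfhx4 was at 308 CPM in male and 23.0 CPM in female cells, beside 24.2 and 19.3 CPM in the Tbx1+/+ carrier. Fibin was at 443 and 25.4 CPM (Tbx1+/+ carrier 16.3 and 12.04), Ogn at 440.1 and 36.1 CPM (36.5 and 45.5), and Angptl1 at 242 and 9.63 CPM (7.38 and 9.90). Female cells of the mutant carrier were thus close to those of the Tbx1+/+ carrier for Zfhx4, Ogn, and Angptl1, and higher for Fibin. Scx was at 171 and 11.3 CPM, Aspn at 231 and 31.6, Agtr2 at 113 and 13.4, Crispld1 at 77.2 and 11.7, and En1 at 59.1 and 1.03. C1qtnf3 was at 64.6 and 6.53 CPM, and 16 of its 19 UMIs in female cells were in 1 cell. With female cells required to have at least 2 UMIs of Xist, the female levels of Zfhx4, Fibin, Ogn, and Angptl1 were 16.2, 14.5, 23.6, and 5.64 CPM. Those of the Tbx1+/+ carrier were then 19.3, 12.2, 46.0, and 9.92 CPM. By this stricter call Fibin differed less between the carriers, and Zfhx4, Ogn, and Angptl1 were lower in the mutant carrier. So were Scx (8.82 against 12.6 CPM) and Crispld1 (10.6 against 18.7 CPM). These lower levels rest on few UMIs of the mutant carrier, from 16 for Angptl1 and 25 for Scx to 67 for Ogn. No intervals were computed for the stricter call, so counting error may cover some of these differences. Aspn (25.8 against 11.7 CPM), Agtr2 (11.3 against 4.96 CPM), and C1qtnf3 (6.35 against 0 CPM) stayed higher in the mutant carrier, and En1 had 2 UMIs in each.

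Ratios of male to female cells in the mutant carrier went from 6.60 for Crispld1 (4.71 to 9.54) to 57.3 for En1 (19.6 to 278), and 10 of 10 genes were called higher in male cells, as were 12.8% of all genes. In the Tbx1+/+ carrier 1 of 8 genes was (0.793% of all genes), Agtr2 at 1.70-fold (1.24 to 2.37). Compared with female cells of the Tbx1+/+ carrier, female cells of the mutant carrier had 3 of 8 genes called higher (1.18% of all genes were). These were Fibin at 2.11-fold, Agtr2 at 2.68-fold, and Aspn at 2.74-fold. Of the 8 genes 0 were called lower (6.3% of all genes were), and their median log2 ratio was 0.11. Over all 10 genes the median was 0.67, since En1 (3 against 2 UMIs) and C1qtnf3 (19 against 0 UMIs, taken at 3) had the highest ratios but too few UMIs to be called. Male cells of the mutant carrier had 10 of 10 called higher than male cells of the Tbx1+/+ carrier (12.9% of all genes), with a median of 3.96. At least 3 of the 10 genes were found in 83.9% (82.6 to 85.2) of male and 2.92% (0.956 to 6.69) of female cells of the mutant carrier. Hox groups 6 to 13 were found in 44.2% of male and 2.34% of female cells. No En1 or C1qtnf3 UMI of these female cells lay in a barcode that also occurs in another library. Sex, embryo, and dissection cannot be told apart here, because cells of 1 sex may come from 1 or a few embryos.

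Comparisons with the drug libraries were then made within each sex. Between female cells of the minoxidil library and female cells of the mutant carrier, 1 of 9 genes was called higher (6.9% of all genes were) and 2 lower (1.08% of all genes were). Crispld1 was 2.12-fold, Aspn 0.451-fold, and C1qtnf3 0.0114-fold. The C1qtnf3 ratio compares 2 with 19 UMIs, and 16 of the 19 were in 1 cell, so it rests largely on that cell. The median log2 ratio was -0.53, compared with -4.11 for all cells. Against female cells of the Tbx1+/+ carrier, 1 of 8 genes was called higher (1.9% of all genes were), Agtr2 at 1.84-fold, and 1 lower (1.38% of all genes were), Scx at 0.626-fold, and the median log2 ratio was 0.36. No male cell of the minoxidil library was found, so male cells could not be compared there. Male cells of the PGE2 library had 10 of 10 genes called lower than male cells of the mutant carrier (12.9% of all genes), with a median log2 ratio of -3.02. Against male cells of the Tbx1+/+ carrier they had 7 of 9 higher (5.57% of all genes) and 2 lower (4.27% of all genes), the latter again Scx (0.200-fold) and Crispld1 (0.617-fold).

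**Figure D4:**
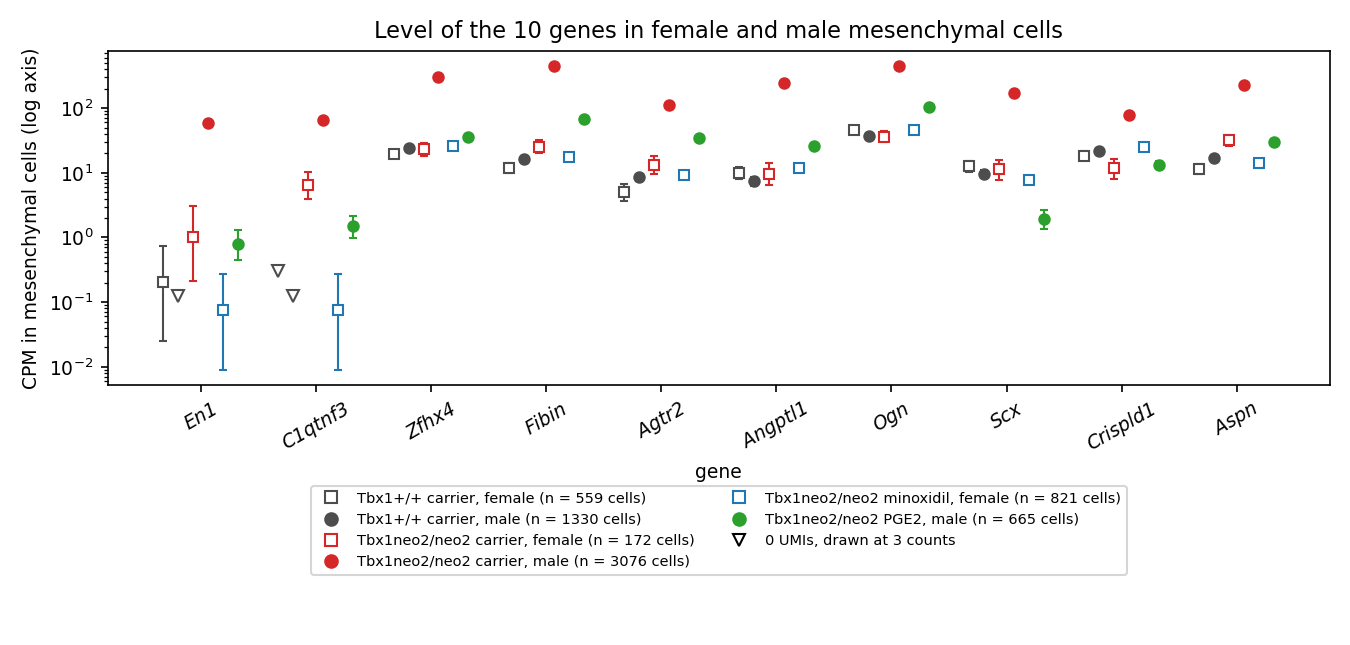
Level of each gene (CPM, log axis) in female (open squares) and male (filled circles) mesenchymal cells of each library, with exact Poisson 95% intervals triangles at 3 counts for a level of 0, and the 1 female cell of the PGE2 library left out. Only the male cells of the Tbx1neo2/neo2 carrier are high for all 10 genes (from 59.1 CPM for En1 to 443 CPM for Fibin), while its female cells are at 23.0 CPM for Zfhx4 and 25.4 CPM for Fibin, where female cells of the Tbx1+/+ carrier are at 19.3 and 12.04 CPM.

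Groups of mesenchymal cells were next defined by their own genes, and these groups overlap. The chondrogenic group had UMIs for 3 or more of the genes Sox9, Acan, Col11a1, Col2a1, Col9a3, Col9a2, and Col9a1, and made up 36.2% of the thinned cells in the mutant carrier and 2.89% in the Tbx1+/+ carrier. In the mutant carrier these 1321 cells had 106 CPM of C1qtnf3, 129 CPM of Crispld1, 552 CPM of Fibin, 304 CPM of Angptl1, and 244 CPM of Scx. Cells with none of the chondrogenic, myogenic, or Hox 6 to 13 genes had 19.1, 35.7, 293, 161, and 95.9 CPM, so C1qtnf3 and Crispld1 differed most between these groups. Agtr2 was the reverse, at 56.8 CPM in the chondrogenic group and 90.2 CPM in cells with none, and 118 CPM in cells with at least 2 UMIs of Dcn. The 10 genes were not confined to 1 group, as cycling cells (at least 2 UMIs of Mki67, Top2a, and Cenpf) had 347 CPM of Fibin, 271 CPM of Zfhx4, and 169 CPM of Scx.

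Cells with at least 2 UMIs of the pericyte genes Kcnj8, Abcc9, and Rgs5 had lower levels in the mutant carrier. They were 36.7% of the thinned cells in the Tbx1+/+ carrier, 6.49% in the mutant carrier, 37.9% in the minoxidil library, and 46.8% in the PGE2 library. In the mutant carrier their levels were 34.6 CPM for Zfhx4, 33.9 for Fibin, 21.1 for Ogn, 19.0 for Angptl1, 12.97 for Scx, 4.56 for En1, and 0.480 for C1qtnf3. In pericyte-gene cells of the Tbx1+/+ carrier Zfhx4 was at 7.37 CPM, Fibin at 7.69, Ogn at 16.4, Angptl1 at 1.91, and Scx at 0.762. En1 and C1qtnf3 were at 0 there, so within this group too the mutant carrier was higher, though little so for Ogn. Outside the mutant carrier Aspn was higher in pericyte-gene cells than in all mesenchymal cells. It was at 30.2 against 16.2 CPM (Tbx1+/+ carrier), 23.4 against 14.4 (minoxidil), and 40.4 against 30.2 (PGE2). The 12 mutant carrier cells with at least 2 UMIs of mesothelial genes (Upk3b, Upk1b, Krt19, and Lrrn4) were low for Angptl1 (12.6 CPM), Agtr2 (0), and C1qtnf3 (0). They had 126 CPM of Ogn, 120 of Scx, 72.6 of Zfhx4, 66.2 of Fibin, 44.2 of Aspn, 41.0 of Crispld1, and 6.31 of En1. In the 44 mesothelial-gene cells of the Tbx1+/+ carrier Scx was at a like level, 124 CPM. Ogn was at 68.0, Fibin at 45.3, and Zfhx4 at 29.3 CPM there. Of the 237 pericyte-gene cells of the mutant carrier, only 6.75% (3.91 to 10.7) had at least 3 of the 10 genes. The share was 84.3% (83.1 to 85.5) in its other mesenchymal cells. The pericyte-gene cells also differed in sex, with 71 typed female and 130 typed male. By sex, pericyte-gene cells were 41.5% of female and 4.24% of male mesenchymal cells of the mutant carrier, beside 41.7% and 33.6% in the Tbx1+/+ carrier. Among mutant carrier cells without these pericyte genes, at least 3 of the 10 genes were found in 5 of 100 female and 2563 of 2939 male cells (87.2%), so the gap between the sexes was present with the pericyte-gene cells left out.

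**Figure D5:**
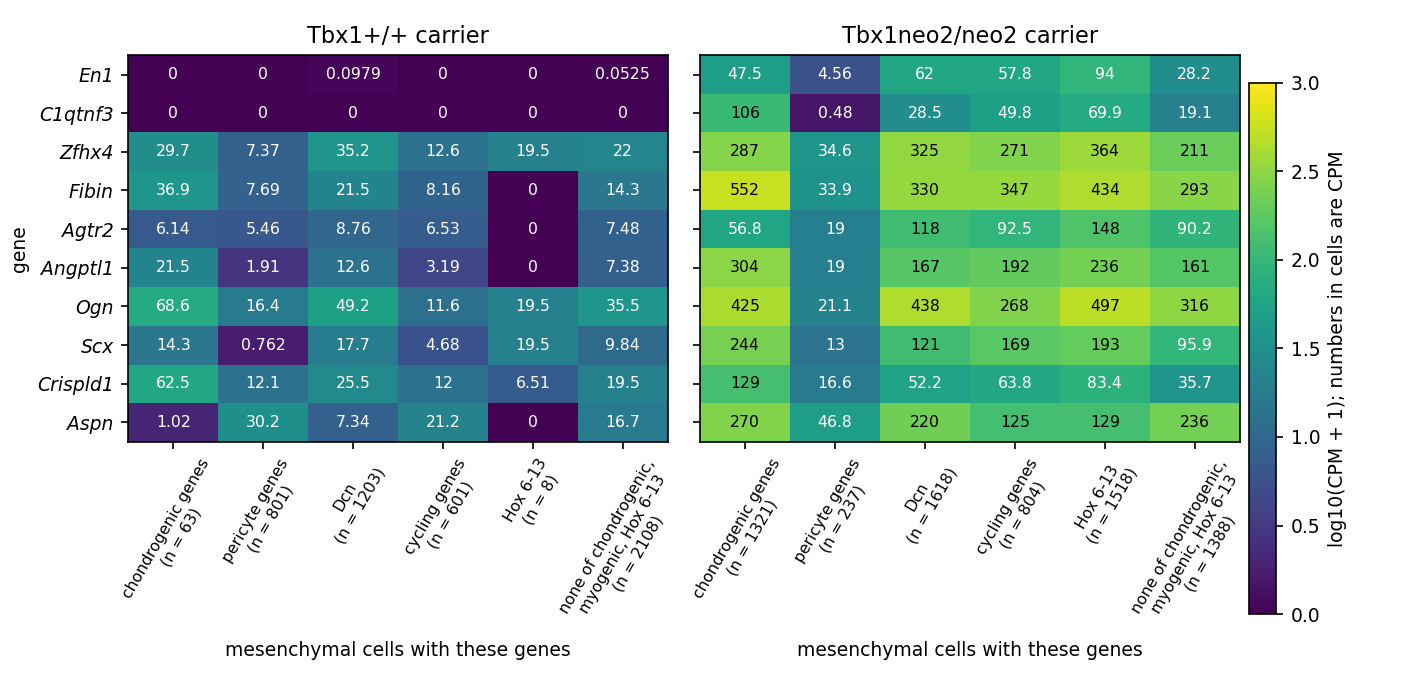
Level of each gene (CPM in each square, color on a log10 scale of CPM + 1) in mesenchymal cells that carry the named genes, in the Tbx1+/+ carrier (left) and the Tbx1neo2/neo2 carrier (right), with the number of cells under each column. Of the groups plotted for the mutant carrier, pericyte-gene cells are lowest for each of the 10 genes, from 0.480 CPM for C1qtnf3 to 46.8 CPM for Aspn.

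Outside the mesenchyme, levels of the 10 genes were low in the mutant carrier, but in the other libraries some matched or exceeded the mesenchymal level. In epithelial cells of the mutant carrier (Epcam at least 2 UMIs and none of Pdgfra, Pdgfrb, Ptprc, and Cdh5), 9 of the genes were at 1.34 to 9.41 CPM, which was 1.25% to 6.24% of their mesenchymal level. Scx stood above these at 25.3 CPM, and it was at 20.01, 15.2, and 13.97 CPM in epithelial cells of the Tbx1+/+ carrier, minoxidil, and PGE2 libraries, the highest of the 10 genes in each. Epithelial Scx exceeded mesenchymal Scx in the Tbx1+/+ carrier (20.01 against 10.2 CPM), minoxidil (15.2 against 7.83 CPM), and PGE2 (13.97 against 1.87 CPM) libraries. Epithelial C1qtnf3 exceeded its mesenchymal level in the Tbx1+/+ carrier, at 1.03 CPM (100 UMIs) against 0, and in the minoxidil library, at 1.45 against 0.0742 CPM. In hematopoietic cells of the mutant carrier the genes were at 1.49 to 10.8 CPM, or 1.39% to 5.32% of the mesenchymal level. Endothelial cells (Cdh5 at least 2 UMIs, 48 to 130 cells a library) had 59.8 CPM of Fibin in the PGE2 library but 2.64, 4.85, and 0 CPM in the Tbx1+/+ carrier, mutant carrier, and minoxidil libraries. Scx was at 1.62, 1.998, 13.96, and 11.5 CPM and Crispld1 at 5.08, 4.28, 15.6, and 16.2 CPM in endothelial cells of the Tbx1+/+ carrier, mutant carrier, minoxidil, and PGE2 libraries. Endothelial Scx thus exceeded mesenchymal Scx in both drug libraries, and endothelial Crispld1 exceeded its mesenchymal level (13.5 CPM) in the PGE2 library. Mesenchymal Fibin of the PGE2 library was at 66.3 CPM, near its endothelial level. Free RNA was not separated from expression at these levels.

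Relatives of the 10 genes were compared between the carriers to see how far the pattern went, with 12.4% of all genes higher and 10.7% lower. The 10 genes themselves, which were selected on this contrast, are left out of the counts and medians. Values are given for the Tbx1+/+ carrier first and the Tbx1neo2/neo2 carrier second. Of 14 tendon and fascia genes tested, 10 were higher and 2 lower, with a median log2 ratio of 1.83. Thbs4, a thrombospondin of tendon, went from 0.306 to 38.3 CPM, the tendon regulator Mkx from 0.127 to 10.9 CPM, and tenomodulin (Tnmd) from 0.713 to 20.04 CPM, while Egr1 went from 669 to 198 CPM and Osr1 from 150.4 to 80.1 CPM. Of 25 regulators of trunk, limb, and dermis 14 were higher and 5 lower (median 1.23). Meox2 went from 2.11 to 43.2 CPM and the forelimb regulator Tbx5 from 4.71 to 86.0 CPM. Msx1 (20.6 to 4.11 CPM) and Hand2 (126 to 40.3 CPM) were among the lower ones. Of the Hox genes of groups 6 to 13, 13 of 13 tested were higher (median 6.62), among them Hoxa7, from 0.433 to 93.9 CPM. All 7 chondrogenic genes were higher (median 3.58).

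Close relatives of the 10 genes did not all share their direction. Of 13 other small leucine-rich proteoglycans 6 were higher and 2 lower (median 0.59). In the renin-angiotensin system 0 of 7 other genes were called higher and 4 lower (median -0.64), with the type 1 receptor Agtr1a at 11.02 and 4.93 CPM. Among angiopoietin-like and Tie genes, 0 of 10 others were called higher and 3 lower (median -0.19), including Angptl7 (11.3 and 2.73 CPM) and Angpt1 (44.3 and 16.0 CPM). Of 5 other C1q and TNF related genes, C1qtnf4 (38.6 and 108 CPM) was higher and 2 were lower (median -0.17). Both other zinc finger homeobox genes were higher (median 1.25), with Zfhx3 at 119 and 251 CPM, and so was Crispld2 (6.49 and 13.4 CPM). Of 19 genes of pharyngeal and neural crest mesenchyme 7 were higher and 7 lower (median -0.32). Tcf21 went from 98.3 to 13.3 CPM, Gata3 from 11.7 to 1.48 CPM, and Foxc2 from 38.8 to 9.85 CPM, while Hoxc5 went from 0.713 to 26.5 CPM and Hoxa5 from 6.54 to 64.9 CPM.

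Some of the genes overlap others in the annotation. The start of Zfhx4 (chr3:5218526-5415857, plus strand) overlaps the antisense transcript 2700069I18Rik, which was at 0.687, 33.1, 0.742, and 1.87 CPM in the 4 libraries and so had the same order of the carriers as Zfhx4. Gm16070, antisense to the start of Crispld1 (chr1:17727045-17766344), was at 1.32, 7.63, 1.78, and 0.909 CPM, in the same order as Crispld1. Whether reads were counted by strand was not given in the sources used here, so these antisense values are uncertain. Scx (chr15:76457452-76459458) lies within Bop1 on the other strand, Ogn and Aspn within Cenpp, and Angptl1 (chr1:156838562-156861078) within Ralgps2. Bop1 (14.8, 19.8, 12.8, and 14.1 CPM), Cenpp (15.6, 16.6, 15.5, and 20.3 CPM), and Ralgps2 (59.5, 66.8, 63.4, and 49.8 CPM) were not called between the carriers. En1 (chr1:120602418-120607992), C1qtnf3 (chr15:10952332-10980150), Fibin (chr2:110360917-110363183), and Agtr2 (chrX:21484544-21489164) overlap no other annotated gene.

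For each gene the most similar pattern across the 3653 thinned mutant carrier cells was sought among 8032 genes found in at least 5% of them, as Pearson r of log(1 + count). For En1 these were Hoxc8 (0.22), Hoxc6 (0.21), and Plpp3 (0.18). For Scx they were Mpped2 (0.32), Rasl11b (0.30), and Runx1 (0.29), and for C1qtnf3 Htra1 (0.31), Tnc (0.28), and Tgfbi (0.25). Crispld1 had the chondrogenic genes Sox9 (0.27) and Col2a1 (0.26) behind Igfbp5 (0.28), and Fibin and Angptl1 shared Col11a1 at the head (0.30 and 0.29). Fibin and Angptl1 had a higher value with each other (0.36). Aspn was most like Aebp1 (0.32), Prss35 (0.32), and Itm2a (0.30), Ogn like Tpm1 (0.33), Tagln (0.28), and Col1a1 (0.28), and Agtr2 like Dlk1 (0.28), Plagl1 (0.27), and Crabp2 (0.26). Zfhx4 had the lowest values but for En1, with Col1a2 (0.24), Col1a1 (0.24), and Ptprd (0.23). All are weak, share 1 library, and are given as a description.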

How the data were processed

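The files hold UMI counts per gene and cell, which the authors deposited without normalization after counting with Cell Ranger 5.0.1 on mm10 (version per the submitters' processing notes), for barcodes called as cells. Intronic counting and strand settings are not given in the sources used here. The 10 genes, the lists, and the gate were chosen with earlier results of these data known. Cells passed with 200 or more genes and a mitochondrial share of 10% or less, and were gated as described. UMIs were summed per library and scaled to CPM with exact Poisson intervals, shares with exact binomial (Clopper-Pearson) intervals, and ratios with an exact conditional binomial interval, at 95%. A count of 0 was compared at 3 counts. No test across embryos was possible, and cells were not treated as replicates. Doublets were not called; the gate removes cells with UMIs of other classes, and the 10% of cells with most UMIs were left out as an alternative. List genes were named when called between the carriers at 10 CPM or more in 1 of them, up to 4 per list and direction, largest ratio first. The 3 most similar genes outside the set of 10 were named for each gene. Not all were printed, and some results are not reported here. The relatives Omd, Ecm2, Dcn, Lum, and Bgn were added after their values were seen, as were the overlapping genes. Sex-matched comparisons as alternatives, and the stricter sex call, were chosen after seeing the data. Calls and thinning were tested on simulated data. Python 3.11.15 (numpy 2.4.6, scipy 1.17.1, pandas 2.3.3, matplotlib 3.10.9) was used, with TMM factors from edgeR 4.0.16 and size factors from DESeq2 1.42.0 in R 4.3.3. Promoter windows came from RefSeq (GRCm38.p6) and positions from GENCODE vM21 (GRCm38).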

Additional observations from a re-analysis of the deposited data

Results flagged for a closer look

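In the contrast of the Tbx1neo2/neo2 carrier with the Tbx1+/+ carrier, 4 genes had log2 ratios of opposite sign in cells typed female and male. The ratio of Angptl1 was -0.039 (-0.70 to 0.58) in female and 5.04 in male cells. For Ogn it was -0.33 (-0.65 to -0.024) in female and 3.59 in male cells. For Scx it was -0.14 (-0.75 to 0.42) and 4.15, and for Crispld1 -0.66 (-1.23 to -0.12) and 1.83. The female intervals of Angptl1 and Scx span both signs, so counting error alone covers a ratio in either direction. The differences between the sexes were not tested, because each library is a single sample and the 172 female cells of the Tbx1neo2/neo2 carrier may come from few embryos. For these 4 genes the ratio in female cells was below the 1.5-fold limit in size except for Crispld1. Its level was 11.7 CPM (8.10 to 16.3) in female cells of the Tbx1neo2/neo2 carrier and 18.5 CPM (15.9 to 21.4) in those of the Tbx1+/+ carrier. These intervals overlap, so Crispld1 was not called lower.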

How the results depend on the processing

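The counts of 10 genes higher in the Tbx1neo2/neo2 carrier and lower in each drug library, and of 7 higher in the PGE2 library than in the Tbx1+/+ carrier, stayed within 1.5 times under other gates, scalings, filters, and cell subsets, apart from the following. With female cells only, 3 genes were higher in the Tbx1neo2/neo2 carrier and 2 lower in the minoxidil library. The log2 ratio to the Tbx1+/+ carrier then turned to -0.039 for Angptl1, -0.33 for Ogn, -0.14 for Scx, and -0.66 for Crispld1. That of minoxidil to the Tbx1neo2/neo2 carrier turned to 0.15 for Zfhx4, 0.30 for Angptl1, 0.35 for Ogn, and 1.09 for Crispld1. Counting intervals spanned both signs for Angptl1 and Scx in the former contrast. In the latter they did so for Zfhx4 (-0.21 to 0.54) and Angptl1 (-0.26 to 0.92). The single gene higher with minoxidil than in the Tbx1+/+ carrier became 4 at a mitochondrial limit of 5%, 2 with the mean over cells, and 0 with a gate of 4 UMIs, without the 10% of cells with most UMIs, or at 4-fold. At 4-fold 3 genes were higher with PGE2 than in the Tbx1+/+ carrier.

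The median share of Hox-positive cells with a gene (42.7%) was 61.1% unthinned and 53.7% at 10000 UMIs. In Hox-negative cells (42.6%) it was 55.6%, 49.2%, 33.2% without chondrogenic cells, and 45.6% in male cells. Cells with at least 3 of the 10 genes were 12.9% (Tbx1+/+ carrier), 87.0% (Tbx1neo2/neo2 carrier), 27.3% (minoxidil), and 33.1% (PGE2) unthinned, and 7.43%, 85.6%, 10.04%, and 17.6% at 10000 UMIs. With at least 2 genes these shares were 10.8%, 85.7%, 14.02%, and 21.3%. The share was 1.75% in the Tbx1+/+ carrier at a mitochondrial limit of 5%, and 2.92% in female and 83.9% in male cells of the Tbx1neo2/neo2 carrier. The cause of these shifts was not tested. Of the log2 ratios of single genes (Tbx1neo2/neo2 carrier over Tbx1+/+ carrier, and each drug library over the Tbx1neo2/neo2 carrier), alternatives left 293 within their counting intervals (for C1qtnf3, which has none, near its value), moved 129, and reversed 8. The 8 reversals are the female ratios given above, some with intervals that span both signs. No paired analysis was possible because there was 1 library per group, and no replicate could be left out. Depth limits En1 and C1qtnf3 outside the Tbx1neo2/neo2 carrier, where 0 to 28 UMIs were found.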
